A study of Homo sapiens with 2 samples.

Results

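The replication histones are the core histones H2A, H2B, H3 and H4 and the linker histone H1 that are made in bulk when DNA is copied. They were described here across 2 libraries of polyadenylated RNA. The genes were chosen by symbol: protein-coding genes named H1- with a number, or H2AC, H2BC, H3C or H4C with a number, of which older names such as HIST1H2BD are synonyms. Of the 62700 genes in the gene table, 72 are described here, with 9 H1, 17 H2A, 18 H2B, 13 H3 and 15 H4 genes. On the RefSeq annotation of GRCh38, 68 of them lie on chromosomes 1 and 6.

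The cells were TCam-2, an established human testicular cancer cell line, in which DDX53, a DEAD-box RNA helicase gene, had been overexpressed by transduction. There was 1 group of 2 replicates, DDX53 cells rep1 and rep2 (replicates 1 and 2 below). As controls the study names WT cells left without transduction and cells given GFP-FLAG. Both kinds of control library were not analysed here, and no conditions were compared. The labels do not say whether the 2 samples came from separate cultures, and the spread between them may be technical. They name no clone, promoter or vector for the transduced gene. DDX53 itself had 146 reads in replicate 1 and 147 in replicate 2. The libraries held 24137664 and 22198929 reads in genes. As a check of the labelled line, marker lists were read by detection, at 1 CPM or more in both libraries. Of seminoma and germ cell markers 10 of 10 were detected, and of embryonal carcinoma markers 3 of 4. Of testis somatic cell markers 2 of 6 were detected, and of later germ cell markers 0 of 10. Over all coding genes the share detected was 63.2%.

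Most messenger RNAs end in a poly(A) tail. Replication histone mRNAs are the known exception in animal cells. Their genes have no introns as a rule, and the transcript is cut a few bases after a short conserved stem-loop, which the stem-loop binding protein SLBP holds in place of a tail. When cleavage at the stem-loop is bypassed, or when an exon further downstream is used, the same genes can give mRNAs with a tail. The replacement histones, such as H3-3A or H2AZ1, are ordinary polyadenylated genes that are expressed outside S phase. H1-10 shares the naming of the linker histones and is known to give polyadenylated mRNA as well. Libraries selected for poly(A) therefore hold only the tailed portion of histone mRNA, and the total amount was not measured here.

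The stem-loop sequences are shown first because they define the family. Of the 72 genes, 37 had at least 50 bases after the stop codon in a GENCODE release 29 transcript, and 30 of these had the histone stem-loop consensus of 16 bases within 200 bases of the stop codon. With H4C11, whose stretch is shorter, 31 genes had a match. All 31 matched without a mismatch, although up to 2 were allowed. Among 18261 other protein-coding genes, 321 (1.76%) had a match with up to 2 mismatches and 2 (0.011%) had an exact one. The match began 23 to 68 bases after the stop codon, with a median of 37. A gene is given for each of the 6 stem-loop sequences found, 5′ to 3′ on the strand of the gene, on GRCh38, with the stem-loop in capitals and 5 bases on each side. All lie in the 3′ UTR.

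H2AC25, chr1:228457364-228457389, minus strand: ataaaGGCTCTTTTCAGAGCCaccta
H2BC5, chr6:26158582-26158607, plus strand: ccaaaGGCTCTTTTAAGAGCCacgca
H2AC11, chr6:27133510-27133535, plus strand: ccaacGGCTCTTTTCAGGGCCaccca
H3C6, chr6:26225591-26225616, plus strand: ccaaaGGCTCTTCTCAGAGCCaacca
H4C8, chr6:26285126-26285151, minus strand: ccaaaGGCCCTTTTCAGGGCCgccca
H4C14, chr1:149833027-149833052, plus strand: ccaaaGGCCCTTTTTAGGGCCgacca

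The sequence shown for H2AC25 was the most common one and was shared by 17 genes of the H2A, H2B and H3 types. The H2BC5 sequence was found in 4 genes, the H4C8 sequence in 5 and the H4C14 sequence in 3. The sequences of H2AC11 and H3C6 were each found in 1 gene. The 8 H4 genes with a match all had 1 of the 2 stems that open with GGCCC and close with GGGCC, which no gene of another type had. Of the 37 genes with at least 50 bases, 7 had no match: H1-10, H1-4, H1-6, H1-7, H1-8, H2BC11 and H4C3. H1-4 has 57 bases after the stop codon, and H1-6 and H4C3 have 51 each. As matches began up to 68 bases after it, these models may end before a stem-loop. For H2BC11 only spliced transcripts were long enough. No match says only that these letters were not in the window searched. The 35 genes with fewer bases than required, among them H1-2 and H2BC12, have models that stop at or near the stop codon in release 29. H4C11, which had a match, is 1 of these 35.

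Few of these genes were found in the poly(A) libraries. A gene was called detected at 1 CPM (reads scaled to a fixed total of reads in genes) or more in both libraries. By that rule 16 of 72 histone genes were detected (22.2%), beside 63.2% of all 19183 coding genes in the table. Without H1-10 the count was 15 of 71. A further 3 genes, H4C16, H2BC6 and H3C10, reached 1 CPM in replicate 1 alone. No read in either library was counted for 15 genes, which allows up to 3 reads each, or 0.124 CPM in replicate 1 and 0.135 CPM in replicate 2. Between these ends, 37 genes had 1 to 30 reads over both libraries together. The limit for 0 reads holds only for reads assigned to the gene, and several of the 15 share most of their sequence with a near copy.

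**Figure D1:**
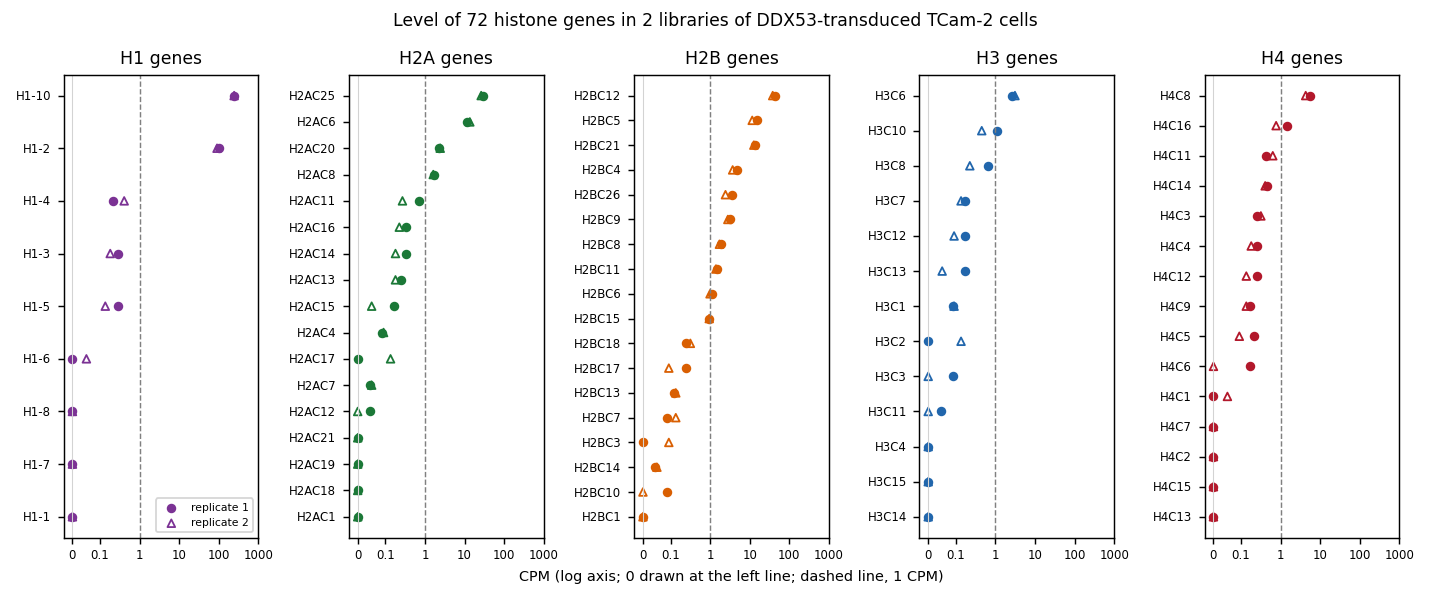
CPM of each of the 72 genes in replicate 1 (filled circles) and replicate 2 (open triangles) on a log axis, in 1 panel per histone type, with 0 drawn at the left line and the detection threshold of 1 CPM dashed. H1-10 and H1-2 stand at the top, and 8 of 18 H2B genes lie above the threshold in both libraries against 1 of 13 H3 genes and 1 of 15 H4 genes.

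All 72 genes together held 11962 reads in replicate 1 and 10373 in replicate 2, or 0.0496% and 0.0467% of reads in genes. H1-10 made up 48.4% and 52.0% of these. The other 71 genes held 6174 and 4975 reads, or 256 CPM (95% Wilson interval 249 to 262) and 224 CPM (218 to 230). Without molecular identifiers such intervals and limits describe the error of counting reads and nothing else. They do not overlap, and the sum was lower in replicate 2. In bulk RNA, fewer cells of a type and less mRNA per cell cannot be told apart. H1-2 alone gave 40.5% and 40.1% of the reads of the 71 genes. The 5 genes with most reads, H1-2, H2BC12, H2AC25, H2BC5 and H2BC21, gave 80.3% and 79.6%.

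Of the 9 linker histone genes, 2 were detected. H1-10, a linker histone expressed in many tissues, had 240 and 243 CPM in replicates 1 and 2. H1-2, a linker histone of the chromosome 6 cluster, had 104 and 89.96 CPM. The next H1 gene was H1-4, with 5 and 9 reads, and its libraries lay far below those of the detected genes. H1-3 had 7 and 4 reads and H1-5 had 7 and 3. H1-1, a linker histone of the same cluster, had 0 reads in both. Per length, in TPM (reads scaled by transcript length and to a fixed total), summed over the transcripts of a gene, H1-10 had 329 ± 12.1 and H1-2 210 ± 20.4 (SD, n = 2), the same order as by reads.

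The testis and oocyte types were at or near 0. H1-6 and H1-7 are linker histones of male germ cells, H1-8 is the oocyte linker histone, and H2AC1 and H2BC1 form a pair of core histone genes known from testis. H1-7, H1-8, H2AC1 and H2BC1 had 0 reads in both libraries, and H1-6 had 0 and 1. By reads, 11 other genes had 0 in both libraries as well: H1-1, H2AC18, H2AC19, H2AC21, H3C4, H3C14, H3C15, H4C2, H4C7, H4C13 and H4C15. For some of these, 0 reads does not mean that the gene was silent. H2AC18 had 113 and 85.1 TPM, H4C15 6.52 and 5.997 TPM, H3C15 1.20 and 0.894 TPM, and H3C4 0.570 and 0 TPM. Each of them shares most of its sequence with another gene.

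The H2B genes, whose protein pairs with H2A in the nucleosome, held most of the core histone reads, with 90.7 and 76.9 CPM in sum and 8 of 18 genes detected. H2BC12 had 44.5 and 38.0 CPM, H2BC5 15.1 and 11.5 CPM, and H2BC21 13.3 and 12.7 CPM. H2BC4 followed with 4.72 and 3.69 CPM, H2BC26 with 3.60 and 2.43 CPM, and H2BC9 with 3.23 and 2.79 CPM. These genes encode H2B proteins that are alike in all but a few residues. H2BC8 had 1.91 and 1.71 CPM and H2BC11 1.49 and 1.40 CPM. Just below the threshold stood H2BC6, with 1.12 and 0.991 CPM, and H2BC15, with 0.911 and 0.946 CPM. The reads of H2BC12 are uncertain, because 61.4% of the 50-base words in its release 29 transcript also occur in H2BC12L, a near copy. Of its words, 25.9% occur in no other gene. That transcript has 0 bases after the stop codon, so words further downstream were not compared.

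Of the 17 H2A genes, 4 were detected, and the type summed to 46.3 and 45.2 CPM. H2AC25 led with 28.9 and 26.4 CPM, and H2AC6 had 11.4 and 13.6 CPM. H2AC20 had 2.32 and 2.43 CPM, and H2AC8 had 1.70 and 1.62 CPM. The order of the libraries differed between H2AC6 and H2AC25, and neither difference passed the test given below.

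H3 and H4, which form the central tetramer of the nucleosome, had the fewest reads. The 13 H3 genes summed to 125 and 95 reads, or 5.18 and 4.28 CPM, and H3C6 was the only one detected, with 2.69 and 3.11 CPM. The 15 H4 genes summed to 221 and 155 reads, or 9.16 and 6.98 CPM, and H4C8 was the only one detected, with 5.59 and 4.28 CPM. H4C16, which lies on chromosome 12, had 1.41 and 0.766 CPM. By TPM the H3 genes summed to 8.70 and 5.18 and the H4 genes to 78.8 and 69.5. Of the H4 sum, 43.2 and 45.5 TPM was in H4C11, which had only 10 and 14 reads.

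By position, and leaving out H1-10 on chromosome 3, the reads came mainly from the first part of the chromosome 6 cluster. The 34 genes within chr6:25726063-26285534 summed to 154 and 136 CPM, with 9 detected, and H1-2 is among them. The 5 genes within chr6:27132316-27147562 summed to 46.9 and 39.8 CPM, with 2 detected, H2BC11 and H2BC12. The 16 genes within chr6:27807479-27893891 summed to only 4.68 and 3.42 CPM, and 0 of them were detected. On chromosome 1, the 11 genes within chr1:149782689-149887965 summed to 16.4 and 15.9 CPM with 2 detected, H2AC20 and H2BC21. The pair H2AC25 and H2BC26 at chr1:228457364-228458558 summed to 32.5 and 28.8 CPM. By reads, the 3 stretches of chromosome 6 thus differed in summed level by far more than the libraries did, and in each the sum was lower in replicate 2. Its Wilson intervals overlapped only in the last stretch, at 3.89 to 5.63 and 2.74 to 4.28 CPM. By TPM the 3 stretches kept their order but lay closer, with 337 and 290, 185 and 155, and 55.8 and 53.6 TPM. The 11 genes of chromosome 1 had 158 and 121 TPM.

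Many H2A and H2B genes lie head to head, and 12 such pairs, with starts 194 to 248 bases apart, are in the set. In 4 pairs both genes were detected: H2BC21 with H2AC20, H2AC25 with H2BC26, H2BC4 with H2AC6, and H2BC8 with H2AC8. In 2 pairs 1 gene was detected. H2BC11 was, while its partner H2AC11 had 0.704 and 0.270 CPM, and H2BC12 was, with 1075 and 843 reads, while its partner H2AC12 had 1 and 0 reads. In the remaining 6 pairs neither gene was detected. Within a detected pair the partners differed: H2BC21 had 320 and 281 reads against 56 and 54 for H2AC20, and H2AC25 had 698 and 585 against 87 and 54 for H2BC26. H2BC8 and H2AC8 were close, with 46 and 38 reads against 41 and 36. The libraries are strand-specific per the labels' protocols, but whether the counting used strand is not given in the sources used here.

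The promoters of these genes share short motifs that bear on such pairs. RefSeq promoter sequences on GRCh38.p14, from 250 bases before the gene start to 50 after, were found for 67 of the 72 genes and searched on both strands. CCAAT, the box known to bind NF-Y, was in 56 of 67 (83.6%) beside 34.6% of all 35116 promoters. It was in all 16 H2A, 18 H2B and 11 H3 promoters and in 3 of 13 H4 promoters. TATAAA was in 43 of 67 (64.2%) beside 11.5% of all promoters. ATTTGCAT, the octamer known from H2B genes as a site for POU factors such as POU2F1, was in 14 of 18 H2B, 11 of 16 H2A, 1 of 11 H3 and no H1 or H4 promoters, beside 1.77% of all promoters. The 3 motifs do not contain one another. A motif between head-to-head genes can be counted for both, so the H2A and H2B counts are not independent. CCAAT was in 14 of 16 promoters of detected genes and 42 of 51 of the others, and the octamer was in 9 of 16 and 17 of 51. The detected genes include 4 H2A and 8 H2B genes, the types that carry the octamer. The octamer split therefore also follows histone type, and no link with detection can be read from it. A match is a description of letters and not a mapped site.

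In 8 of the 11 head-to-head pairs with both promoters in the RefSeq table, both windows hold the same octamer. Of these pairs, 3 are among the 4 with both genes detected. Starts lie 194 to 248 bases apart and each window reaches 250 bases upstream. An octamer between the starts thus falls in both windows by construction, so the sharing follows from position. H2BC12 and a pair with both genes detected are shown, 5′ to 3′ on the strand of each gene on GRCh38.p14, with the octamer in capitals. H2BC21 and H2AC20 are the same bases read from either strand.

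H2BC12, chr6:27146886-27146915, minus strand: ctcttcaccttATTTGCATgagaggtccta
H2BC21, chr1:149886710-149886739, minus strand: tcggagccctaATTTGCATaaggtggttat
H2AC20, chr1:149886710-149886739, plus strand: ataaccaccttATGCAAATtagggctccga

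The octamer began 46 bases before the start of H2BC12, 46 before that of H2BC21 and 197 before that of H2AC20. The pair H2AC25 and H2BC26, both detected, was among the 3 pairs without a shared octamer.

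The position of the 3′ end annotated in RefSeq, relative to the stem-loop, was then set beside the reads. Of the 31 genes with a stem-loop, 24 end within 10 bases of it in RefSeq, 20 of them exactly 5 bases past it. Of these 24, 6 were detected, H2AC25, H2AC6, H2AC8, H2BC26, H2BC9 and H4C8, and the median over the 24 was 0.466 CPM. In the other 7 genes the annotated gene runs further, and 5 of them were detected: H2BC21, H2BC4, H2BC5, H2BC8 and H3C6, with a median of 2.90 CPM over the 7. H2BC18 and H4C15 were the exceptions, with 6 and 7 reads and with 0 reads. The annotated end was 1729 bases past the stem-loop in H2BC21, 1862 in H3C6, 10302 in H2BC4 and 12747 in H2BC5, but only 18 in H2BC8. A longer gene model also gives reads more bases to be counted in. The models on which the reads were counted are not given, and they may not be those of RefSeq. H2AC25, H2AC6 and H4C8 end within 10 bases of the stem-loop in RefSeq. Their transcripts described below run 390 bases past it in H2AC25, 1128 in H2AC6, and 630 or 1655 in H4C8. Fewer counted reads where a counted model ends at the stem-loop, and fewer tailed transcripts, cannot be told apart in the gene table.

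The transcript table gives models that extend past the stem-loop or leave it out. Only 29 of the 98 histone transcripts in it carry the same version as in release 29, so the 3′ end is known for 11.9% and 10.8% of the TPM of the 72 genes. For the 31 stem-loop genes, 64.1% and 64.4% of TPM was in transcripts whose model differs between versions and is left unclassified. Transcripts that run more than 30 bases past the stem-loop held 25.6% and 26.2%, in 11 transcripts of 8 genes. Transcripts of these genes without the stem-loop held 9.90% and 9.31%, in 6 transcripts of 5 genes. No transcript of unchanged version ended at the stem-loop. The share below therefore sets transcripts that run past it only against those without the stem-loop or an annotated stop codon. It cannot show how often cleavage at the stem-loop was bypassed. Of the TPM of these genes in transcripts of unchanged version, the share that runs past was 71.3% in replicate 1 and 73.5% in replicate 2, a mean of 72.4% ± 1.60 (SD, n = 2).

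H2AC25 carried most of the first class. Its transcript of 895 bases runs 390 bases past the stem-loop shown above, and it had 55.2 and 51.4 TPM. H2AC6 had 9.55 and 9.21 TPM in a transcript of 2 exons that runs 1128 bases past its stem-loop. Another H2AC6 transcript of 2 exons, without the stem-loop, had 0.709 and 2.95 TPM. H4C8 had 5.34 and 2.82 TPM in a transcript that runs 630 bases past and 0.928 and 1.23 TPM in one that runs 1655 bases past.

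The second class was led by a pair of H2B genes. In H2BC5 the spliced transcript of 2 exons, which leaves the stem-loop out, had 24.2 and 16.6 TPM. The unspliced one with the stem-loop had 14.6 and 13.6 TPM, and its model differs between versions. In H2BC4 the spliced transcript had 10.2 and 7.86 TPM and the unspliced one 5.32 and 4.61 TPM. In both genes the spliced transcript was higher in each library. The spliced transcripts of H2BC5 and H2BC4 and those named for H2AC25 and H4C8 have the polyadenylation signal AATAAA or its variant ATTAAA in their last 50 bases, as does the transcript of H2AC6 that runs past the stem-loop.

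**Figure D2:**
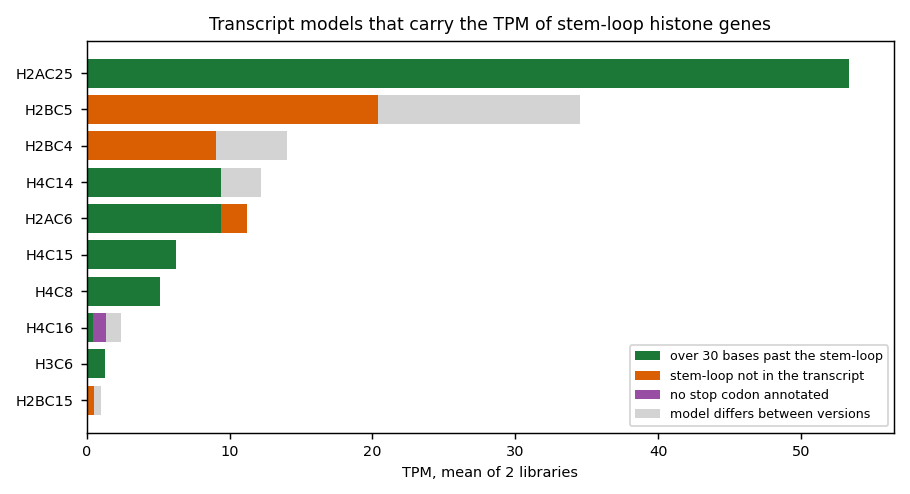
Mean TPM of 2 libraries for stem-loop histone genes with at least 0.5 TPM in transcripts of classified 3′ end, split by what the release 29 transcript does at the stem-loop. H2AC25 lies wholly in transcripts past the stem-loop, and H2BC5 and H2BC4 are split between a spliced transcript without it and a model that differs between versions (grey).

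The gene table and the transcript table disagreed for near-identical copies. H2AC18 had 0 reads in both libraries but 113 and 85.1 TPM, the fourth highest TPM of the set. Its transcripts share 100% of their 50-base words with H2AC19, which had 0 reads and is listed at 0 TPM. H4C11 had 10 and 14 reads but 43.2 and 45.5 TPM, and it shares 81.2% of its words with H4C12. H4C14 had 11 and 9 reads with 15.6 and 8.79 TPM, and H4C15, which shares 97.2% of its words with H4C14, had 0 reads with 6.52 and 5.997 TPM. In all, 15 of the 72 genes had less than 50% of their words to themselves, and 1 of these, H2BC12, was detected by reads. Of the 52 genes with at least 90%, 14 were detected. Levels of the copies are uncertain in both tables.

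**Figure D3:**
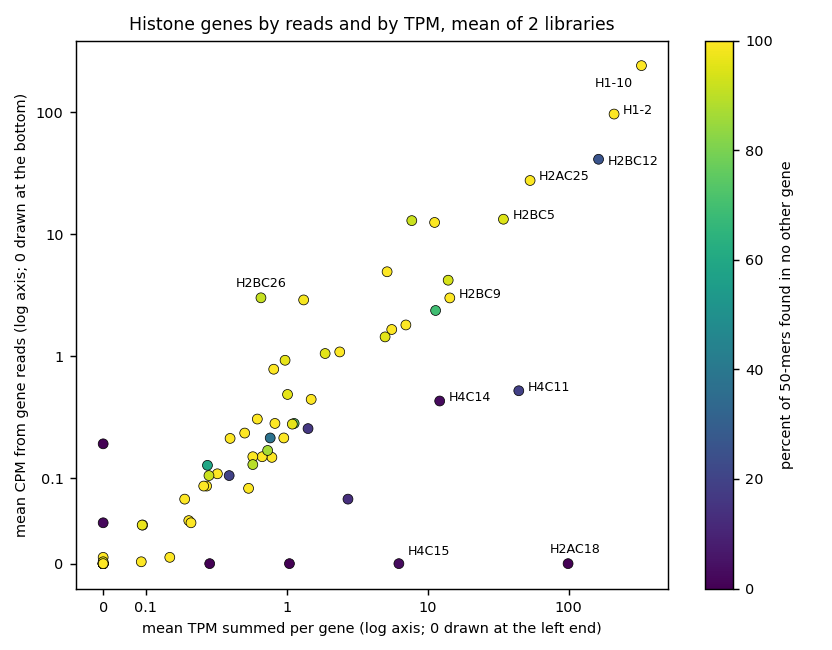
Mean CPM from gene reads against mean TPM summed per gene for the 72 genes, both on log axes with 0 drawn at the end, coloured by the percent of 50-base words found in no other gene. H2AC18, H4C11, H4C14 and H4C15, all dark, lie low in CPM for their TPM, which was 99.2, 44.3, 12.2 and 6.26 TPM.

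H2BC9 and H2BC8 departed from the reads predicted by TPM and release 29 length, although most of their words are their own. The log2 ratio of reads to the number predicted from TPM times transcript length was -2.73 and -2.71 for H2BC9, and H2BC8 was likewise below its prediction, with -1.995 in replicate 1 and -2.0005 in replicate 2. H2BC26 went the other way, with a log2 ratio of 1.60 and 1.43. The median over the 16 detected genes was -0.18 and -0.11, beside 0.14 in each library over all detected genes. Transcript lengths are those of release 29, which may not be the lengths the authors used. For H2BC9, H2BC8 and H2BC26 the model differs between versions. Their release 29 transcripts have 2060, 1534 and 2364 bases, while the RefSeq genes span 462, 489 and 456. These ratios therefore do not establish that the tables disagree, and the part of length was not tested.

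The 2 libraries differed slightly in these genes. On log2(CPM + 1), which understates changes of low genes, the median difference of the 16 detected genes was -0.11 in replicate 2 against replicate 1. Without H1-10 it was -0.13, with 12 of 15 genes lower, and H2AC20, H2AC6 and H3C6 higher. Over all 13604 detected genes the median was -0.0075 and 52.2% were lower. A two-sided exact binomial test in edgeR, with Benjamini-Hochberg adjustment over 15299 genes, set each difference against counting noise. Such a test compares these 2 libraries and not conditions.

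By that test 3 of the 20 histone genes tested passed an adjusted p of 0.05, all of them lower in replicate 2, beside 13.1% of all genes in either direction and 6.65% lower. H1-2, with 104 and 89.96 CPM, had a difference of -0.20 (adjusted p = 0.00011 in edgeR's test). H2BC12, with 44.5 and 38.0 CPM, had a difference of -0.22 (adjusted p = 0.0089), and H2BC5, with 15.1 and 11.5 CPM, had one of -0.36 (adjusted p = 0.013). At an unadjusted p under 0.05 the count was 7 of 20, of which 6 were lower in replicate 2, beside 24.2% of all genes in either direction and 12.3% lower. H1-10, with a difference of 0.020, did not pass the test. S phase genes were measured beside them, with a list median of 0.064. Of a list of 10, 4 passed, PCNA, MCM7, TYMS and RRM2, all higher in replicate 2, beside the 13.1% of all genes in either direction. The test passes smaller differences in genes with more reads, and these 10 had 111 to 707 CPM. The part of S phase genes in the difference of the histone genes was not tested.

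**Figure D4:**
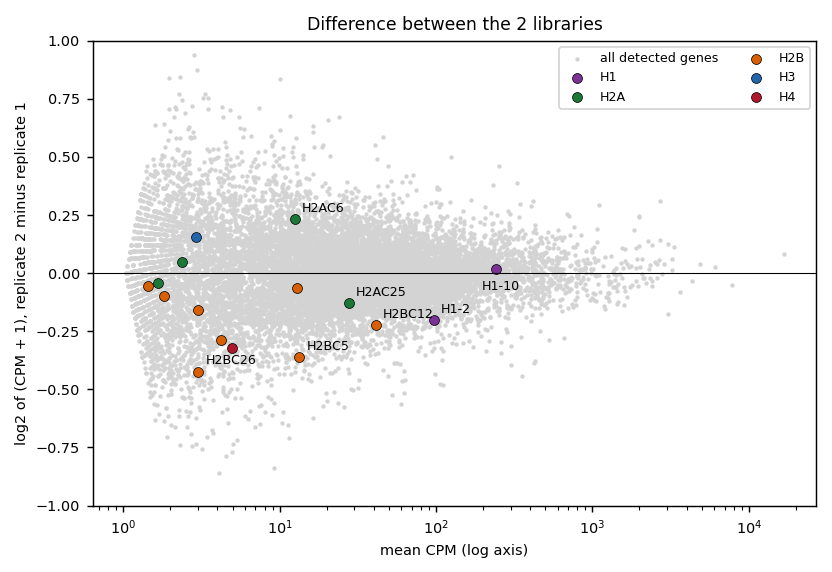
Difference of log2(CPM + 1) between replicate 2 and replicate 1 against mean CPM (log axis) for all 13604 detected genes (grey) and the 16 detected histone genes (coloured by type). H1-2, H2BC12 and H2BC5 lie below the line at 0, and H1-10 lies close to it.

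The machinery that makes and ends histone mRNA was described through a list of its genes. All 24 genes of a list of histone mRNA synthesis and processing were detected, with means from 7.86 to 302 CPM. Detection in the lists of this paragraph stands beside 63.2% of all coding genes. SLBP, which binds the stem-loop, had 83.0 and 87.1 CPM, and NPAT, the coactivator of histone gene transcription, had 18.7 and 17.2 CPM. LSM11, a subunit of the U7 particle that positions the cut, was the lowest, with 8.16 and 7.57 CPM. Between the libraries 3 of the 24 passed the test: CSTF2 and NCBP2 were lower in replicate 2 and CDK2 was higher. All 12 genes of general polyadenylation were detected, and 1, the poly(A) polymerase gene PAPOLG, was lower in replicate 2. All 12 histone chaperone genes were detected, and 4 were lower in replicate 2: NASP, DAXX, ATRX and NAP1L1. Over all genes tested, 13.1% passed in either direction and 6.65% as lower, and genes with more reads pass at smaller differences.

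Per length, the replacement genes H3-3A, H3-3B and H2AZ1 were above the summed replication genes of their type, while H2AX and H2AJ were each below the H2A sum. Of the replacement list, 14 genes were found in the table, 3 of which are also in the set described here (H1-10, H2AC25 and H2BC26). Among the other 11, 9 were detected, beside 63.2% of all coding genes. H3-3A, a gene for the replacement H3, had 1150 and 1141 TPM, and H3-3B, which encodes the same protein, had 858 and 817 TPM. The 13 H3 genes of the set together had 8.70 and 5.18 TPM. H2AZ1, which encodes the H2A variant found at promoters, had 865 and 860 TPM, while the 17 H2A genes together had 205 and 171 TPM. H2AX and H2AJ, which lie outside the clusters, had 139 and 133 TPM and 138 and 129 TPM. H3-4 and H3-5, the other 2 of the 11, were not detected, with 0 reads in both libraries and 3 and 2 reads. Of the 9, H3-3A was lower in replicate 2 by the edgeR test, and MACROH2A1 and MACROH2A2 were higher, beside 13.1% of all genes in either direction.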

How the data were processed

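Polyadenylated RNA of 2 TCam-2 samples was sequenced. The submitters' processing notes name Trim Galore 0.6.10, STAR 2.7.11a, Salmon 1.10.2, DESeq2 and GRCh38 (hg38); the annotation release and the read counter are not given in the sources used here. The authors deposited TPM per transcript for 251955 transcripts, and a second table per gene in which, judged by its values, the deposited signal is the count of reads over a size factor (1 for each library). Whole reads were recovered by dividing by the value of 1 read (1.02 and 1.12), and 100% of values above 0 were whole within 0.001 of a read. The headers name the libraries but not the identifier column, and every column of values was used.

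CPM is relative to all recovered reads in genes. TPM was summed per gene by transcript identifier through GENCODE 29 (201667 transcripts matched). That release also gave transcript lengths, 50-base words and stem-loops, and 4 genes were matched to it by an older symbol. The rule on symbols found 73 genes, of which 1 is not reported here and is left out of every count and sum over the histone genes. Gene coordinates are RefSeq's on GRCh38.p14. Libraries were compared with edgeR 4.0.16 (binomTest, TMM effective library sizes, low counts filtered) in R 4.3.3; alternatives used DESeq2 1.42.0 size factors. Tables were made with pandas 2.3.3 in Python 3.11.15 and plots with matplotlib 3.10.9. On simulated data of 15401 genes at these depths, 89.5% of 200 genes changed 2-fold were recovered, with 12 unchanged genes called. The simulation held counting noise alone and no other spread between libraries. The 12 therefore do not give the error rate for these data. The genes, the lists and the rule for named genes (detected members, those of testis or oocyte, those passing the test, and list members) were chosen with earlier results of these data known; a gene named outside it was chosen after its values were seen.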

Additional observations from a re-analysis of the deposited data

How the results depend on the processing

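The number of histone genes detected was 16 as reported, 37 at 0.1 CPM and 7 at 5 CPM, so it is set by the threshold. With TPM summed per gene at 1 TPM it was 24, and with 1 library left out it was 16 to 19. The share of reads in the 72 genes, 0.0481% as a mean, was 0.106% by TPM and 0.0490% without genes of mitochondrial DNA. It lay between 0.0467% and 0.0496% in the libraries alone. Without H1-10 the share was 0.0240%, and it was 0.0733% by TPM and 0.0224% to 0.0256% in the libraries alone. TPM weights reads by transcript length. The median log2 difference between the libraries, -0.11, was -0.14 with a pseudocount of 0.1, -0.081 over all genes with a read, -0.15 by TPM and -0.11 after centring on all detected genes, and it kept its sign in these 4 settings.

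The number of genes that differed between the libraries was 3 with DESeq2 size factors and 3 with no filter on low counts, the same genes each time. At a threshold of 0.01 it was 2, H1-2 and H2BC12. The share of TPM running past the stem-loop, 72.4% of that in transcripts of unchanged version, was the same at 100 bases or with exact matches. Neither setting could move it: all matches were exact, and no such transcript ended 30 to 100 bases past the stem-loop. The share was 71.3% to 73.5% in the libraries alone. Of all TPM of the stem-loop genes, the part known to run past was 25.6% and 26.2%. Matching transcripts without version, an alternative chosen after seeing the data, gave 76.1%. No paired analysis was possible because there is 1 group. With 2 libraries no sample could be tested as an outlier. Depth limits the 37 genes with 1 to 30 reads, whose order was not resolved.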
